A study of Mus musculus with 4 samples.

Results

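The mRNAs of Penk and Ppp1r1b were followed through 82 single mouse brain cells, cell by cell. Both are rows of a raw count table of 15305 genes, and a cell was counted as a carrier of a gene when the table gave it 10 or more counts. By that rule 28 of the 82 cells carried at least 1 of the genes: 9 carried Penk, 23 carried Ppp1r1b and 4 carried both. The cells were thus selected on the counts of the same 2 genes, which, with their Enpp2 share and their Sox11 and Gja1 counts, are given as a description. The cells came from SVZ/striatal tissue (the subventricular zone is the stem cell niche beside the lateral ventricle) of Penk-Cre Ai9 mice, given as WT under genotype. Here Cre is driven by Penk and turns on tdTomato, a red fluorescent reporter, for good, so a sorted cell, or one of its ancestors, made Cre at some time and need not hold Penk mRNA when it is sorted. Dataset A (41 cells, 1 plate) was sorted as tdTomato+/CD11b-, which leaves out cells with the microglial surface protein CD11b; dataset B (41 cells, 4 plates) took all tdTomato+ cells. No age, sex, treatment or number of animals was given, and no row for the reporter was analysed here.

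Penk encodes proenkephalin, which is cut into the opioid pentapeptides Met-enkephalin and Leu-enkephalin, and in the striatum it is a standard label of projection neurons of the indirect pathway, which carry the dopamine receptor Drd2 and the adenosine receptor Adora2a. Ppp1r1b encodes DARPP-32, which becomes an inhibitor of protein phosphatase 1 when protein kinase A phosphorylates it; Cdk5 phosphorylates it at another residue, and calcineurin removes the phosphate that protein kinase A adds. DARPP-32 is abundant in striatal projection neurons of either pathway and is also known from choroid plexus epithelium, the secretory sheet that makes cerebrospinal fluid. The landmark genes also belong to the rule that chose these values: they are Enpp2, which encodes autotaxin and is abundant in choroid plexus epithelium, Sox11, a transcription factor of neuroblasts, and Gja1, the connexin 43 gene of astroglia and quiescent stem cells.

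Each dataset was a single sort, so cells are not replicates, and values are given without tests; the intervals on shares of cells are exact binomial 95% intervals and cover counting error only. Where no cell carried a gene, the limit given is the share that 3 cells would make, which also covers counting error only. Dataset A held 530630 to 7765650 counts per cell and dataset B 1235278 to 3339591. Column names give dataset, plate and well but not the neuroblast and quiescent stem cell samples of the labels, so no cell was assigned to either. A cell is named here by its dataset and well (A-G11, or B-PL4-B4 for plate PL4 of dataset B).

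Some libraries stood apart when cells were compared over all genes. Over all 3321 pairs of cells, the Pearson correlation of log2(CPM + 1), where CPM is the count scaled to 1000000 counts per cell, had a median of 0.190 and a 99th percentile of 0.409. The 7 most alike pairs lay between 0.543 and 0.790, and all of them joined Penk carriers of dataset A: A-G8, A-G9, A-H6 and A-E10 with one another, and A-G11 with A-G9. A-G9 and A-G11 also shared more of the genes found in exactly 2 cells than any other pair (at 10 counts, 26 of 1255), and A-G9 and A-G8 shared 9. A-G9 had 4197 genes detected, against a median of 1544 over all cells. Carrier counts without A-G9, A-H6 and A-E10 are therefore given beside those with them, and counts over gene lists where leaving them out changed the count. A-G8, itself alike to them, was kept, and its correlation with A-G11 was 0.272.

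Penk was found in few cells and at very uneven levels. Its carriers made up 10.98% of the cells (interval 5.14 to 19.8%), 7 in dataset A and 2 in dataset B; without the 3 alike libraries 6 carriers were left, 4 in dataset A. After each cell was thinned to 500000 counts, 6 cells kept 10 counts. Just below the limit stood 4 cells of dataset A with 1 or 2 counts, and no cell of dataset B had between 1 and 9.

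The highest Penk count, 1674 (898.2 CPM), was in A-G11. This cell also held 21957 counts of Sox11, none of Gja1 and an Enpp2 share of 0.000322%. B-PL4-B4 came next with 1216 counts of Penk (625.6 CPM). It was a cell of the opposite kind, with Enpp2 at 15.3% of its counts and neither Sox11 nor Gja1. A-G8 held 922 counts of Penk (483.5 CPM) with 21330 of Sox11, and A-G9 held 712 (412.5 CPM) with 18032 of Sox11. B-P1-C1 had 251 counts of Penk (116.9 CPM), 11141 of Sox11 and no count of Enpp2. These 5 cells are those at 100 counts or more, and 4 of them are Sox11 cells.

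The other 4 carriers were low in Penk and also held choroid plexus transcripts. A-B9 had 31 counts of Penk (17.4 CPM), Enpp2 at 23.2% and no Sox11. A-H6 had 27 (6.87 CPM), with 992 of Sox11 and 78.2% of its counts in Ttr, the transthyretin gene of choroid plexus. A-F6 had 16 (13.5 CPM), Enpp2 at 1.93%, 85 counts of Sox11 and 4650 of Gja1, the only Gja1 cell among the carriers. A-E10 had 11 (3.70 CPM), Enpp2 at 3.45% and 443 of Sox11. Penk was between 11 and 31 counts in these 4 cells and between 251 and 1674 in the other 5.

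Penk was also set against Sox11 in the Sox11 carriers. For each 1000 counts of Sox11 there were 43.2 of Penk in A-G8, 39.5 in A-G9, 27.2 in A-H6 and 24.8 in A-E10, while the Sox11 counts themselves ran from 21330 down to 443. A-G11 had 76.2, B-P1-C1 22.5 and A-F6 188.2. The value of A-E10 rests on 11 counts of Penk. Whether RNA passed between wells was not tested.

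Summed over each dataset, Penk was at 39.2 CPM in dataset A (exact Poisson interval 37.9 to 40.6) and 17.1 CPM in dataset B (16.2 to 18.0), intervals that cover counting error only. Single cells set both sums. A-G11 gave 49.2% of the counts in dataset A and B-PL4-B4 gave 82.9% in dataset B, and without them the levels were 20.3 and 2.99 CPM.

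Ppp1r1b was carried more often, by 28.0% of the cells (18.7 to 39.1%), 12 in dataset A and 11 in dataset B. Thinning left 22 carriers. Its counts were spread from 30 to 15134 with a median of 1207, and the next cells below the limit had 9, 1, 1 and 1. Summed levels were 322.3 CPM in dataset A (318.5 to 326.1) and 279.3 CPM in dataset B (275.8 to 282.9); without the highest cell of each they were 153.7 and 211.1 CPM, so that the order of the datasets turned.

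Most Ppp1r1b carriers were Enpp2-rich, a name used here for cells with Enpp2 at 1% of counts or more. Of the 32 Enpp2-rich cells 19 carried Ppp1r1b, a share of 59.4% (40.6 to 76.3%), against 4 of 50 other cells, 8.0% (2.22 to 19.2%). Both datasets showed the split: 9 of 16 Enpp2-rich cells and 3 of 25 others in dataset A, 10 of 16 and 1 of 25 in dataset B. Without the 3 alike libraries the shares were 19 of 31 (61.3%) and 3 of 48 (6.25%). Only 3 cells lay between 0.5% and 2% Enpp2. With a limit of 5% in place of 1%, carriers made up 57.7% of the Enpp2-rich cells and 14.3% of the others, and with 50 counts of Ppp1r1b in place of 10 they made up 56.3% and 4.0%. Median depth was 2225430 counts in the Enpp2-rich cells and 1899000 in the others. Because Enpp2 is part of the rule, this association is a description.

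Within the 9 carriers among the Enpp2-rich cells of dataset A, Ppp1r1b ran from 121 counts in A-B8 over a median of 956 to 6229 in A-B2. In the 10 of dataset B it ran from 32 in B-PL4-H12 over a median of 1565.5 to 6455 in B-P1-H9, so the ranges overlapped. The next highest in dataset B were B-P1-H4 with 4332, B-PL4-E8 with 3307 and B-PL4-F7 with 3290. B-P1-H4 and B-P1-H9 were the eighth most alike pair of libraries, with a correlation of 0.486 and 13 genes at 10 counts in these 2 cells alone, the second most of any pair. In dataset B the carriers lay on plates P1 (3 of 14 cells), P3 (2 of 7) and PL4 (6 of 14); none of 6 cells of plate P2 carried the gene, which allows a share of up to 50%, and none of those 6 was Enpp2-rich.

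**Figure D1:**
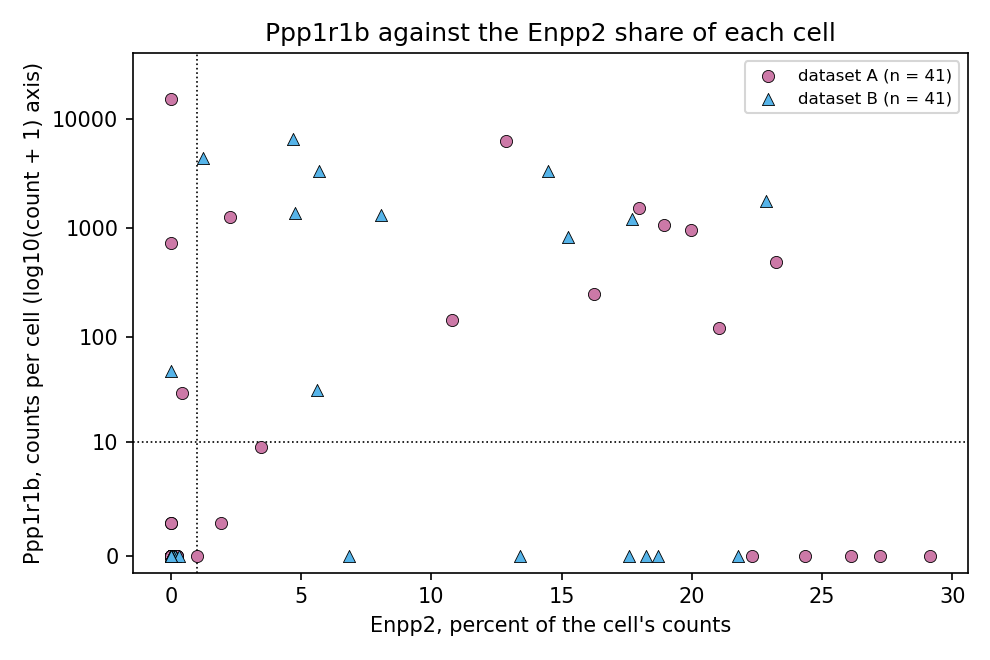
Ppp1r1b counts of each cell (log10(count + 1) axis) against the percent of its counts in Enpp2, with circles for the 41 cells of dataset A and triangles for the 41 of dataset B; dotted lines mark 10 counts and 1%. Of the cells right of the 1% line 19 of 32 lie above 10 counts, and the highest point, at 15134 counts, lies at the left edge.

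The Enpp2-rich cells with Ppp1r1b held less Enpp2 at the median than those without it, in both datasets. In dataset A the medians were 18.0% with and 24.3% without, and in dataset B 6.86% and 17.9%. Ttr was at 17.4% and 20.3% in dataset A and at 4.48% and 11.6% in dataset B. Carriers had more genes at 10 counts, 921 against 771 at the median in dataset A and 1127.5 against 989.5 in dataset B. Median depth was 2059940 counts with and 2683700 without in dataset A, and went the other way in dataset B, 2156810 and 2115290. Over both datasets it was 2079100 with and 2319080 without. The ranges of the 2 groups overlapped on each of these measures.

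On the plate of dataset A, however, carriers and non-carriers lay in different rows. All 9 Enpp2-rich cells of rows A to C carried Ppp1r1b, at 121 to 6229 counts, and none of the 7 in rows E to H did, at 0 to 9 counts. Row D had no Enpp2-rich cell. Ppp1r1b was the only gene of 5793 (0.0173%) with that all-against-none pattern, and Lipa, which encodes lysosomal acid lipase, was the only one with the reverse (0.0173%): no counts in rows A to C and 42 to 5371 in rows E to H. None of the 8 other cells of rows A to C carried Ppp1r1b, which allows a share of up to 37.5%. Dataset B had no such split, with 4 of 7 Enpp2-rich cells of rows A to D and 6 of 9 of rows E to H. The rows were compared after the values had been seen, and the part of plate position in the result was not tested.

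**Figure D2:**
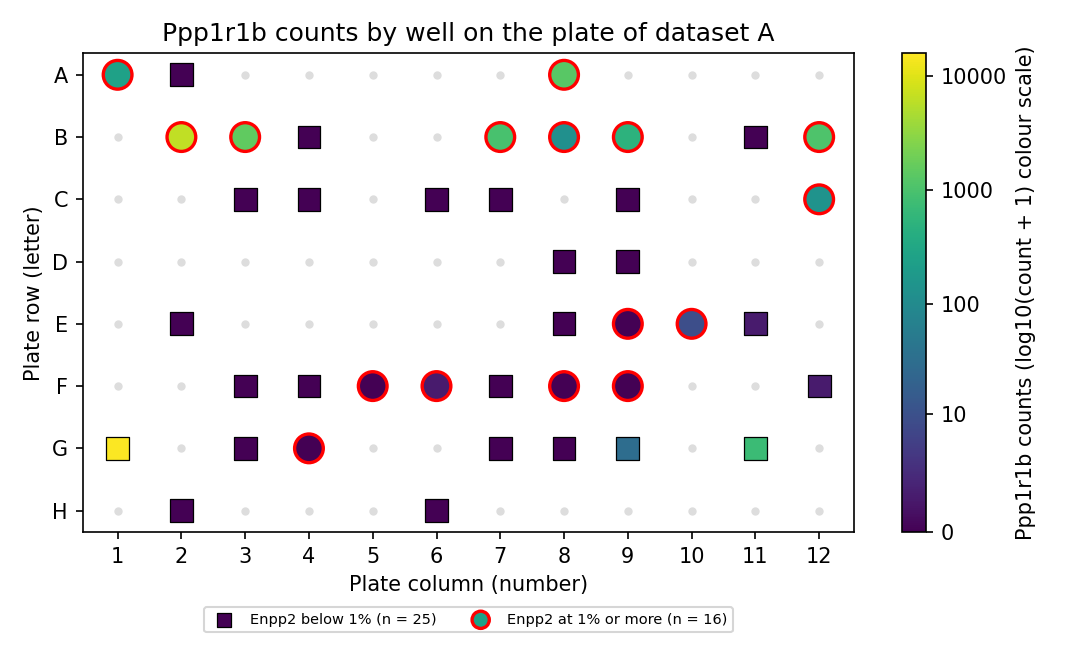
Wells of the dataset A plate (row letter against column number), coloured by Ppp1r1b counts on a log10(count + 1) scale; red-edged circles are the 16 Enpp2-rich cells, squares the 25 other cells and small grey dots the wells without a cell in the table. The 9 circles of rows A to C hold 121 to 6229 counts and the 7 of rows E to H hold 0 to 9.

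Outside the Enpp2-rich cells Ppp1r1b had 4 carriers. The highest count of all, 15134 (4513 CPM), was in A-G1, with no Sox11, 9 counts of Gja1 and Enpp2 at 0.000328%. A-G1 was an unusual library: only 207 genes reached 10 counts, and 50 genes held 78.4% of its counts, against a median of 28.2% over all cells. Among the marker genes it held 51287 counts of Arpp21, a cyclic AMP-regulated phosphoprotein gene of striatal neurons, 51492 of Ccnd2, a cyclin gene of dividing progenitors and the highest count of it in the 82 cells, 57833 of Aldoc and 34317 of Slc1a2, both astroglial, and 37005 of Ctss, a protease gene of microglia. At 10 counts or more were 1 of 24 striatal projection neuron markers, 5 of 21 astroglial and 1 of 16 microglial ones. The other 3 were Sox11 cells: A-G11 with 724 counts of Ppp1r1b, B-P1-E9 with 48 beside 25111 of Sox11, and A-G9 with 30. Of the 43 Sox11 cells 7 carried Penk (16.3%, 6.81 to 30.7%) and 3 carried Ppp1r1b (6.98%, 1.46 to 19.1%). By dataset, Penk was carried by 6 of 18 Sox11 cells in dataset A (33.3%, 13.3 to 59.0%) and 1 of 25 in dataset B (4.0%, 0.101 to 20.4%). Ppp1r1b was carried by 2 of 18 and 1 of 25. Without A-G9, A-H6 and A-E10, which are all Sox11 cells, 4 of 40 carried Penk (10.0%, 2.79 to 23.7%) and 2 carried Ppp1r1b, and after thinning 4 of 43 kept Penk. Of the 8 Gja1 cells, all in dataset A, 1 carried Penk and none carried Ppp1r1b, which allows a share of up to 37.5%.

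The 2 genes met in 4 cells, 4.88% of all (1.34 to 12.02%). In A-G11 there were 1674 counts of Penk and 724 of Ppp1r1b, in B-PL4-B4 1216 and 835, in A-B9 31 and 492, and in A-G9 712 and 30. Only A-G11 and B-PL4-B4 held 50 or more of each, and they were of different kinds. A-G11 had 16 of 20 neuroblast markers and 1 of 21 choroid plexus markers at 10 counts; B-PL4-B4 had 1 and 8. Seen from Penk, 4 of 9 carriers also carried Ppp1r1b (44.4%, 13.7 to 78.8%); seen from Ppp1r1b, 4 of 23 carried Penk (17.4%, 4.95 to 38.8%). Without the 3 alike libraries 3 cells held both.

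**Figure D3:**
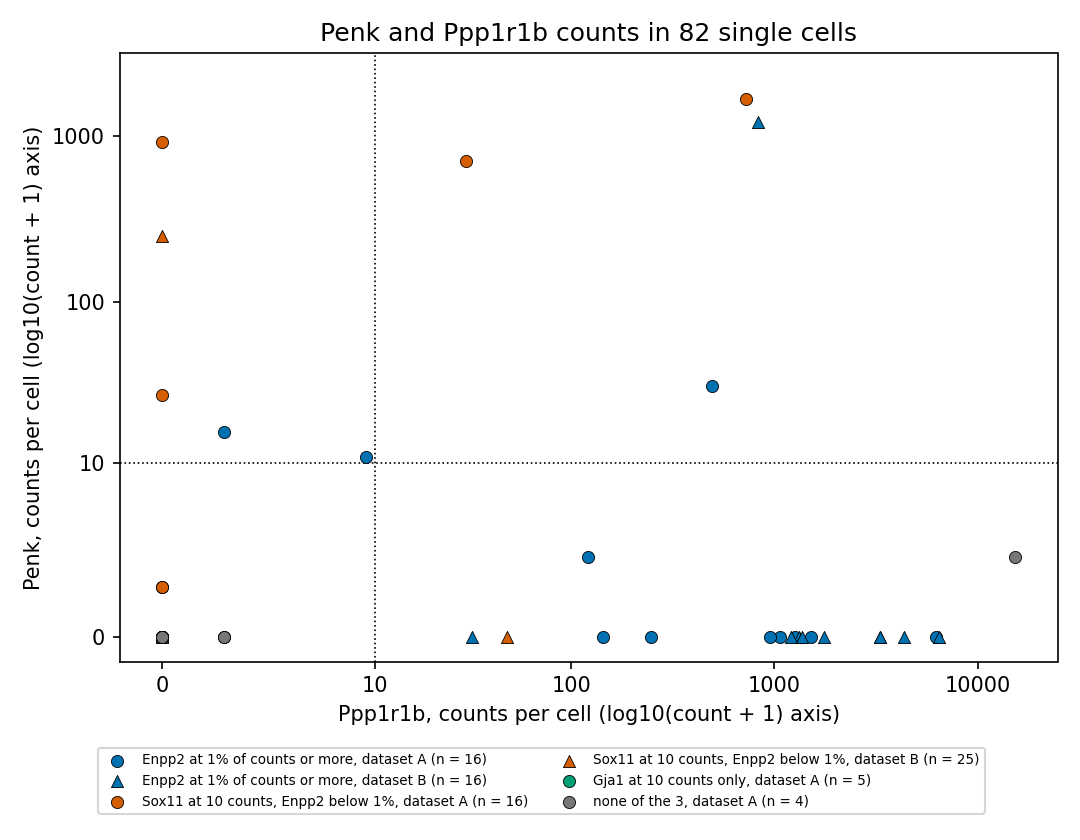
Penk against Ppp1r1b counts in the 82 cells (both log10(count + 1) axes), coloured by landmark gene, with circles for dataset A and triangles for dataset B; dotted lines mark 10 counts and many cells overlie one another at 0. The upper right field holds the 4 cells with both genes, of which 2 have 50 or more counts of each.

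Of the markers of striatal projection neurons, the receptor and peptide genes were absent or near 0, while several others were found in Penk cells. Drd1, Adora2a and Pdyn, the dopamine D1 receptor, adenosine receptor and prodynorphin genes, were at 0 in all 82 cells. Drd2 reached at most 3 counts and Gpr6, an orphan receptor gene of the indirect pathway, at most 2. Tac1, the substance P precursor gene of the direct pathway, had 10 counts in 1 cell (19 counts) that carried neither gene. Genes of the list that neuroblasts also express were present: Gad1, for GABA synthesis, in 6 of 9 Penk cells, Sp9 in 6 and Meis2 in 4. Scn4b, a sodium channel subunit gene, was at 10 counts in 5 of 9 Penk cells against 2 of 54 cells with neither gene, but 3 of those 5 were A-G9, A-H6 and A-E10. The other 2 were A-G11 with 958 counts and A-G8 with 1176. Foxp1, a transcription factor gene of these neurons, was in 4 of 9 against 3 of 54, Bcl11b, another one, in 2 of 9 against 3 of 54, and Ptpn5, a striatal phosphatase gene, in 2 of 9 against none of 54. Without the 3 alike libraries, Foxp1 was left in A-G11 and A-G8, Bcl11b in A-G11 alone and Ptpn5 in no Penk cell. A-G8 was kept here although it is alike to those libraries. Read by the whole list, A-G9 had 11 and A-G11 had 8 of 24 markers at 10 counts, above the 35 Sox11 cells with neither gene, which had 0 to 7 and a median of 3. The other 7 Penk cells lay within that range, from 0 in A-F6 and B-PL4-B4 to 6 in A-G8, and A-G9 had 2929 genes of any kind at 10 counts against 1314 in A-G11. By share of counts the list came to 0.404% in A-G9 and 0.680% in A-G11, within the range of those 35 cells (0 to 0.954%).

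The Penk carriers fell into kinds when read by the whole marker lists. Of 20 neuroblast markers, 15 to 18 were at 10 counts in 6 of the 9 cells: A-G11, A-G8, A-G9, B-P1-C1, A-H6 and A-E10. The 35 Sox11 cells that carried neither gene had a median of 15. By share of counts these 6 cells were not level: the markers made up 2.75 to 4.58% in the first 4, against 0.106% in A-H6 and 0.0562% in A-E10, and the median of the 35 cells was 3.88%. B-PL4-B4 and A-B9 had 1 and 0 of them but 8 and 16 of 21 choroid plexus markers. A-F6 had 19 of 21 markers of astroglia and quiescent stem cells, among them Gjb6 (4626 counts), Ntsr2 (7987) and Slc1a3 (1836), together with 10 choroid plexus markers. Its neuroblast markers made up 0.137% of its counts, a larger share than in A-H6 or A-E10. A-G9 and A-H6 held markers of both main kinds, 18 and 15 for neuroblasts beside 14 and 16 for choroid plexus. Microglial markers were near absent, with 1 of 16 at 10 counts in A-H6 and none in the other 8.

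**Figure D4:**
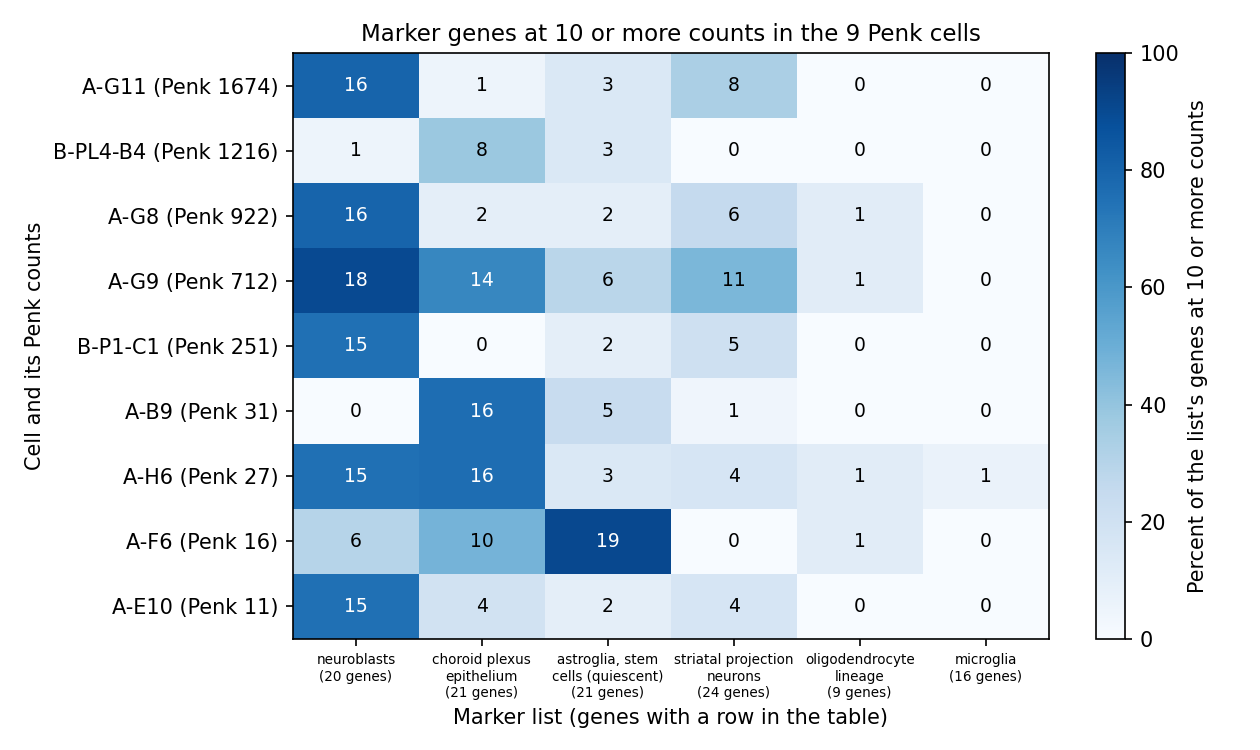
Marker genes at 10 or more counts in the 9 Penk cells (rows, in order of Penk counts) for 6 marker lists (columns, with the number of genes that have a row); the printed number is the count of genes and the colour its percent of the list. 6 cells have 15 to 18 of 20 neuroblast markers, and B-PL4-B4 and A-B9 have 1 and 0.

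The genes leading single Penk cells, by their level over the median of all cells, were neuronal or choroid plexus genes in some cells only. A-G11 was led by Tubb3 (10583 counts), a neuronal tubulin gene, Tagln3 and Sp8 (7165), an interneuron precursor factor. A-G8 and A-G9 were both led by Pcdh9, a protocadherin gene, with 11031 and 7182 counts, and B-P1-C1 by Tiam2 (14704). A-B9 and A-H6 were led by Ttr, and Plpp3 (12280), a lipid phosphatase gene of astroglia, was among the leading genes of A-F6. B-PL4-B4 was led by Cab39l (8802) and Ptgds (8732). A-E10, with 15 neuroblast markers, was led by Adissp (63605) and 1810024B03Rik (63576), at 10 counts in 7 and 5 cells and on none of the marker lists.

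Next, each gene's carriers were set against the remaining cells over all genes at 10 counts in at least 5 cells, 5792 without the gene itself. A gene was called when the pooled CPM + 1 differed at least 4 times in the same direction in both datasets. Of these genes 33.3% were called in the Penk cells, 0.915% higher and 32.4% lower; dataset B has only 2 Penk cells, in which many genes are at 0. Called genes in the Ppp1r1b cells were 2.24% higher and 13.8% lower. For lists, the share of cells with the gene at 10 counts is used, and a larger share in both datasets was met by 16.1% of all genes for Penk and 29.2% for Ppp1r1b.

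In the Ppp1r1b cells, choroid plexus genes were more frequent. Of 20 compared, 15 had a larger share in both datasets and none a smaller one, with a median difference of 35.9 percentage points against 0.221 over all genes. Kl, the anti-ageing co-receptor klotho, was at 10 counts in 18 of 23 carriers, Folr1, a folate receptor gene, in 19, Kcnj13, a potassium channel gene, in 19, and Car12, a carbonic anhydrase gene, in 15. Of 20 neuroblast genes none had a larger share in both datasets and 19 a smaller one, at a median of -32.4 points; 28.3% of all genes had a smaller share. Of 10 striatal projection neuron genes 1 had a larger share, Arpp21, and 5 a smaller one. Without the 3 alike libraries the choroid plexus and neuroblast counts were the same and no striatal projection neuron gene had a larger share. By pooled level, 1 of the 20 choroid plexus genes was called higher and 1 lower. Of the 20 neuroblast genes none was called higher and 3 lower. Over all genes 2.24% were called higher and 13.8% lower. Since most carriers are Enpp2-rich, these counts are no independent evidence.

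In the Penk cells, several lists had genes with a larger share in both datasets more often than the 16.1% of all genes. Of 20 neuroblast genes, 8 had a larger share in both datasets (Gad1, Sp9, Meis2, Sp8, Robo2, Nrep, Dpysl3 and Dcx) and none a smaller one, with a median difference of 26.3 points against 2.89 over all genes. Of 10 striatal projection neuron genes 4 had a larger share, but Gad1, Sp9 and Meis2 are on both lists and Arpp21 was the other one. Of 20 choroid plexus genes 7 had a larger and 2 a smaller share, of 8 cyclic AMP signalling genes 5 and 1, and of 11 genes of the sodium pump and chloride cotransport 5 and 3; 28.1% of all genes had a smaller share. Without the 3 alike libraries the neuroblast count was again 8 and the striatal one 4, with medians of 11.1 and 17.1 points against 0.342 over all genes, while the larger shares were 5 for choroid plexus, 4 for cyclic AMP signalling and 4 for the pump list. By pooled level no gene of these 5 lists was called higher, beside 0.915% of all genes. Called lower were 5 choroid plexus genes, 2 of cyclic AMP signalling and 2 of the pump list, and none of the neuroblast or striatal genes. Of all genes 32.4% were called lower. Of 15 genes of kinases and phosphatases that act on DARPP-32, 4 had a larger and 2 a smaller share. Without the 3 alike libraries these counts were 4 and 4. By pooled level 2 of the 15 were called higher and 4 lower, beside 0.915% and 32.4% of all genes. Dataset B enters these counts with 2 cells, of which 1 is a Sox11 cell.

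Among the 10 genes whose cells matched the Ppp1r1b cells best, by the Jaccard index (cells with both genes over cells with either), were Kl at 0.563, Acaa2 and Ogdh at 0.548, Fam81a and Cryab at 0.529, Folr1 at 0.528, Rbm47 at 0.514, Kcnj13 at 0.514 and Ecrg4 at 0.513. Kl was in 27 cells and shared 18 with Ppp1r1b, and Ecrg4 in 36 and shared 20. Acaa2 and Ogdh encode mitochondrial enzymes, of fatty acid oxidation and of the citric acid cycle. The points share libraries and depth, so the index is a description. Without the 3 alike libraries 8 of the 10 were kept, by Spearman correlation over all cells 3, and at 1 count 6.

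For Penk the likeness rested on the alike libraries. Zfp318, Ing2 and Reep2 had an index of 0.556, Nell2 0.545, and A130014A01Rik, E430024P14Rik, Syt4, Slc30a7, Bpgm and Igf2bp3 0.500. Each of the 10 was at 10 counts in A-G8, A-G9, A-H6 and A-E10, and in at most 2 further Penk cells. Only Zfp318 was shared with a cell of dataset B, B-P1-C1. Without A-G9, A-H6 and A-E10, 5 of the 10 were kept: Zfp318, Ing2, Reep2, Nell2 and Bpgm. By Spearman correlation over all cells 4 were kept, and at 1 count in place of 10, 3.

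Within the Enpp2-rich cells, those with Ppp1r1b, which had more genes at 10 counts and less Enpp2 and Ttr at the median, also had other genes more often. The part of these traits was not tested. Called genes were 10.0% higher and 1.67% lower than in the Enpp2-rich cells without it, and 22.0% of all genes had a larger share in both datasets against 7.06% a smaller one. Among the 10 largest differences in share were those of Ogdh, at 10 counts in 17 of 19 cells with Ppp1r1b and 3 of 13 without, Naca, a ribosome-bound chaperone subunit gene (13 and 1), Psmb2, a proteasome subunit gene (14 and 2), and the small heat shock protein gene Hspb8 (11 and 0). Tmem242 (11 and 0), Uqcrfs1 (12 and 1), Tsc22d1 (12 and 1), Tpd52l1 (13 and 2) and Hint2 (14 and 3) were also among them. In dataset A these shares are also shares by plate row, and Psmb2 was in 7 of 9 cells of rows A to C and 0 of 7 of rows E to H. In dataset B Psmb2 was in 7 of 10 cells with Ppp1r1b and 2 of 6 without, at pooled levels of 410.9 and 389.7 CPM.

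Choroid plexus genes hardly separated these groups. Of 20 compared, 4 (Kl, Car12, Kcne2 and Prlr) had a larger share with Ppp1r1b in both datasets and 2 (Calml4 and F5) a smaller one, near the 22.0% and 7.06% over all genes; without A-E10 the counts were 3 and 3. The median difference was 5.06 points against 2.83 over all genes, but without A-E10 it was 0.439 against 3.51. The cells with Ppp1r1b had 7 to 16 of 21 choroid plexus markers and those without 4 to 16.

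The partners of DARPP-32 were read from a list of kinases and phosphatases. Prkaca, the catalytic subunit of protein kinase A, was in 12 of 23 Ppp1r1b cells and, within the Enpp2-rich cells, in 4 of 9 carriers against 0 of 7 other cells in dataset A and 7 of 10 against 2 of 6 in dataset B. The regulatory subunit gene Prkar1a was in 8 of 23, the casein kinase gene Csnk1a1 in 10, and Ppp3ca, the calcineurin catalytic subunit gene, in 3. In the 54 cells with neither gene these 4 were in 12, 28, 20 and 12. Against all other cells, 1 of 15 genes of the list had a larger share in both datasets and 8 a smaller one, beside 29.2% and 28.3% of all genes. Of the 15 compared within the Enpp2-rich cells, 3 had a larger share with Ppp1r1b in both datasets and 1 a smaller one, near the 22.0% and 7.06% over all genes. Cdk5 was in 3 of 23 carriers, and Prkacb in none.

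Among protein phosphatase 1 genes, the catalytic subunit genes Ppp1ca and Ppp1cb were in 9 and 8 of 23 Ppp1r1b cells and in 19 and 18 of 54 cells with neither gene, and Ppp1cc in no Ppp1r1b cell. Against all other cells 2 of 8 genes had a larger share in both datasets and 5 a smaller one, beside 29.2% and 28.3% of all genes; without the 3 alike libraries the counts were 1 and 5. Ppp1r1a, the gene of another phosphatase inhibitor that protein kinase A activates, did not exceed 1 count in any cell. Within the Enpp2-rich cells none of the 8 had a larger or a smaller share in both datasets, beside 22.0% and 7.06% of all genes, and without A-E10 1 had a larger share. The Penk cells had Ppp1r12a, a myosin phosphatase subunit gene, in 7 of 9 and Ppp1r9a, a neuronal scaffold gene, in 6, against 16 and 11 of 54. Of the 9 genes of the list compared in the Penk cells, 2 had a larger and 4 a smaller share in both datasets. Over all genes these shares were 16.1% and 28.1%. The median difference was 7.46 points against 2.89 over all genes, and without the 3 alike libraries -9.59 against 0.342. By pooled level none of the 9 was called higher and 4 were called lower, beside 0.915% and 32.4% of all genes. The 9 include Ppp1r1b itself, which had a larger share in both datasets.

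Of cyclic AMP signalling, Gnas, the stimulatory G protein subunit, was in 15 of 23 Ppp1r1b cells, Gnb1 in 18 and Crebbp, the CREB-binding protein gene, in 10. In the 54 cells with neither gene they were in 19, 46 and 30. Of 8 genes of this list 2 had a larger share in both datasets than in all other cells and 1 a smaller one, beside 29.2% and 28.3% of all genes. Without the 3 alike libraries the counts were 2 and 4. Gnal, the G protein subunit that couples dopamine and adenosine receptors in striatal neurons, did not exceed 2 counts in any cell. Htr2c, a serotonin receptor gene abundant in choroid plexus, was in 6 of 23 Ppp1r1b cells, 3 of 9 Penk cells and 3 of 54 cells with neither gene. Immediate early genes were rare: of 13 with a row, Dusp1 was in 4 of 23 Ppp1r1b cells, Btg2 in 2, and Fos in none.

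The sodium pump and its partners, which DARPP-32 signalling is known to touch in transporting epithelia, were frequent in the Ppp1r1b cells. Fxyd1, the pump regulator phospholemman, was in 20 of 23, Stk39, a kinase gene for chloride cotransporters, in 15, and Atp1b1, a pump subunit gene, in 14, against 15, 10 and 25 of 54 cells with neither gene. Of 11 genes of that list, 5 had a larger share in both datasets than in all other cells and 2 a smaller one, beside 29.2% and 28.3% of all genes. Against the other Enpp2-rich cells the list gave 1 larger and 3 smaller, beside 22.0% and 7.06%, with Stk39 in 15 of 19 and 12 of 13.

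The machinery around enkephalin was only partly present in the Penk cells. Pam, which amidates peptides, was in 8 of 9, while Cpe, the carboxypeptidase that trims enkephalin precursors, and Cadps, a vesicle priming factor, were in 3 each. In the 54 cells with neither gene they were in 28, 12 and 4. Of 8 genes of this list 2 had a larger share in the Penk cells in both datasets and 2 a smaller one, beside 16.1% and 28.1% of all genes; without the 3 alike libraries the counts were 2 and 3. Scg5, also on the list, was in 1 of 9 Penk cells and 21 of 54 cells with neither gene. Pcsk2, a prohormone convertase gene, reached 10 counts in none of the Penk cells. The granin gene Chga was at 0 in all 82 cells. Pcsk1 and Chgb of the list had no row to read. Of the other opioid precursors, Pdyn and Pomc were at 0 in all cells. Ogfr, the opioid growth factor receptor gene, was in 3 of 9 Penk cells, with 2604 counts in A-G11, and in 6 of 54 cells with neither gene. Npepps, an enkephalin-degrading aminopeptidase gene, was in 4 of 9 Penk, 9 of 23 Ppp1r1b and 7 of 54 other cells, and Ace, the angiotensin-converting enzyme gene, in 2, 7 and 6. The opioid receptor genes Oprm1, Oprd1 and Oprk1 were not analysed here.

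In the GENCODE annotation of GRCm39, used here for position only, Penk lies on the minus strand of chromosome 4 (4132722 to 4141856) and Ppp1r1b on the plus strand of chromosome 11 (98239169 to 98248624). An antisense long noncoding RNA, A830012C17Rik, covers 390 of 3486 exonic bases of Penk, 11.2%. Gm71798 covers 476 and 1700003D09Rik 460 of 3269 exonic bases of Ppp1r1b, both antisense. The strand setting of the counting is not given in the sources used here, and without strand these reads cannot be told apart.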

How the data were processed

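The deposited table holds unnormalized counts, whole numbers whose totals differ between cells. The submitters' processing notes name FastQC 0.12.1, STAR 2.7.10b, featureCounts, Subread 2.1.1, GRCm39 and mm10, with no roles; annotation, strand setting and filters are not given in the sources used here. Per the labels' protocols, cDNA was primed with oligo-dT, template-switched and amplified by PCR; no molecular identifiers are named there, so reads are not independent molecules. All 82 cells were kept, and doublets were not called. CPM was computed from the counts here. Shares were also taken after thinning each cell to 500000 counts. Fold changes used pooled counts per dataset and a pseudocount of 1 CPM; the script was tested on simulated data. Members, lists and alternatives were chosen with earlier results of these data known. Named genes were the 10 most like each member by Jaccard index, the 10 with the largest difference in share within Enpp2-rich cells that had the same sign in both datasets, list members by their number of carriers (at most 4 per list, besides absent defining markers), and the leading 5 genes of each Penk cell; others, such as Lipa, Cdk5, the members of small list counts and the marker genes of A-G1, were named after their values were seen. Some genes the rule takes are not reported here. RefSeq promoter tables held neither member, so no sequence is shown. Tools were Python 3.11.15, numpy 2.4.6, pandas 2.3.3, scipy 1.17.1 and matplotlib 3.10.9.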

Additional observations from a re-analysis of the deposited data

How the results depend on the processing

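Counts of Penk carriers were 9 at 10 counts, 13 at 1 count, 7 at 10 CPM and 5 at 50 or at 100 counts; cells with both genes were 8 at 1 count and 2 at 50 or at 100 counts. Ppp1r1b carriers stayed between 20 and 27. With plate rows taken apart after seeing the data, 100.0% of Enpp2-rich cells in rows A to D and 0.0% in rows E to H of dataset A carried Ppp1r1b; other Enpp2 limits and count minimums gave 56.3 to 65.6%, and 4.0 to 14.3% of the other cells. Without the cell with most counts, pooled levels were 20.3 (dataset A) and 2.99 CPM (dataset B) for Penk and 153.7 and 211.1 CPM for Ppp1r1b; the means of the cells were 44.8, 18.1, 244.3 and 262.6 CPM. Genes past the fold numbered 932 for Ppp1r1b cells against all others, 677 within Enpp2-rich cells and 1930 for Penk cells. A pseudocount of 10 CPM gave 538, 387 and 1118, a 2-fold limit 1739, 1031 and 2416, and an 8-fold limit 595, 537 and 1581. Median-ratio scaling moved the median gene by -0.69 to 0.48 (log2) for Ppp1r1b and by -1.002 in dataset A and 0.82 in dataset B for Penk. Leaving out A-G9, A-H6 and A-E10 was chosen after seeing the data. With 1 sort per gate, no replicate could be left out. No paired analysis was made, because cells could not be assigned to the samples of the labels. Levels under 10 counts limit what can be said of Penk in A-G3, A-G7, A-B8 and A-G1.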

Other observations

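On the plate of dataset A, other genes also differed in frequency between the Enpp2-rich cells of rows A to C and those of rows E to H, and they were named after their values were seen. Rtn4, which encodes the neurite growth inhibitor Nogo, was at 10 counts in 1 of 9 cells of the upper rows and 7 of 7 of the lower rows, with up to 10396 counts. Wls, a Wnt secretion factor gene, was in 8 of 9 and 1 of 7, and Gpx1, a glutathione peroxidase gene, in 7 of 9 and 0 of 7. In dataset B, Lipa was in 1 of 7 Enpp2-rich cells of rows A to D and 1 of 9 of rows E to H, Rtn4 in 1 and 3, and Wls in none of either.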
